A study of Mus musculus with 10 samples.

Results

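The circadian clock genes described here are 10 genes of the molecular clock, Per1, Per2, Per3, Cry1, Cry2, Clock, Nr1d1, Nr1d2, Dbp and Tef, measured in whole kidneys of old mice. They were taken by gene symbol from the 13299 genes of a table of normalized counts, and all 10 were found there. Every one of them passed the filter on low values, which asked for a normalized count of at least 5 in at least 5 samples and kept 13236 genes. The kidneys came from 5 Rragc S74N/+ and 5 Rragc +/+ mice, all of the C57BL/6 strain and aged 1.5 years. Rragc S74N/+ mice carry a germline edit of 1 allele of Rragc, present in every tissue, and Rragc +/+ mice are wild type. Rragc encodes RagC, a GTPase that relays nutrient sufficiency to mTORC1, a kinase complex that drives growth, and S74N makes it more active. The labels name no treatment in either group. The animals lived under alternating light and dark, but neither the labels nor the methods of the study gave the hour at which these kidneys were collected, so the phase of the clock in each mouse is unknown. The labels gave no replicate numbers, and replicates were numbered within each genotype by order of deposit.

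The circadian clock is a loop of transcription factors that runs in nearly every cell. CLOCK pairs with BMAL1, encoded by Arntl, and switches on the Per and Cry genes, whose proteins return to the nucleus and repress the pair, while the nuclear receptors REV-ERB (Nr1d1, Nr1d2) and ROR (among them Rora) repress and activate Arntl. Dbp, Tef and Hlf encode output factors of the PAR bZIP family that act on D-box sites. In the kidney, where filtration, sodium transport and blood pressure follow the time of day, most transcripts of the loop rise and fall daily and the transcript of Clock itself cycles weakly.

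The known sequence elements of the loop were looked for in the promoters, since factors of the loop bind them. RefSeq promoter windows on build GRCm38.p6, from 250 bases before to 50 bases after an annotated start, were held for 9 of the 10 genes, in 13 windows, and not for Per2. The elements searched on both strands were the E-box CACGTG bound by CLOCK, its variant the E'-box CACGTT, the D-box as TTATGTAA or TTACGTAA, and the ROR element, which is the receptor core AGGTCA or GGGTCA behind an A-rich flank. An E-box lay in the windows of 3 genes (Per1, Cry1 and Tef), an E'-box in those of 3 genes (Cry1, Cry2 and Nr1d1), a D-box in that of 1 gene (Per3, at 2 places) and a ROR element in none. Of the 27025 genes with a window, 8.09% held an E-box, 5.44% an E'-box, 1.23% a D-box and 0.514% a ROR element. A match is a description of the letters in the window, and a missing match says only that these letters are not in it. The windows of Per1, Cry1, Tef and Per3 are shown because they hold E-boxes or D-boxes, and the first of 3 windows of Clock because Clock is the gene whose level differed between genotypes. Each sequence runs 5′ to 3′ on the strand of its gene, and capitals mark the matches (AACGTG is the E'-box read on the other strand).
Per1, first of 2 windows, chr11:69098699-69098998, plus strand: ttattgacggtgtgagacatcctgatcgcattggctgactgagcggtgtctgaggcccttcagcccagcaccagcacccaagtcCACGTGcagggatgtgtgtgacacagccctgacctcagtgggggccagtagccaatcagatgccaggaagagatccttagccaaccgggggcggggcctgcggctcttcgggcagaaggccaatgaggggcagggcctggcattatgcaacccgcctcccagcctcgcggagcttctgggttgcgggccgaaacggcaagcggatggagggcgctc
Cry1, chr10:85185005-85185304, minus strand: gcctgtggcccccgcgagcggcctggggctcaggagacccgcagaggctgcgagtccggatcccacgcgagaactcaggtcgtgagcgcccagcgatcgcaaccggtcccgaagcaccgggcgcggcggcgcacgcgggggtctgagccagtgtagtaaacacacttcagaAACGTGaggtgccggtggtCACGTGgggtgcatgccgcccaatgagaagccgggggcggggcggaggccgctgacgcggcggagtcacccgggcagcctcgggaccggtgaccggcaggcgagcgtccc
Per3, chr4:151044616-151044915, minus strand: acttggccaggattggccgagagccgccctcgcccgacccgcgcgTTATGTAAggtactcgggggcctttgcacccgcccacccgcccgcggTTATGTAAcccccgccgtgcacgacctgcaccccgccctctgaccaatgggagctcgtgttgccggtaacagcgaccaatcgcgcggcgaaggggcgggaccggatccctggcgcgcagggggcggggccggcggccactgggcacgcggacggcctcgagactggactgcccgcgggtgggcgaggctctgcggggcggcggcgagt
Tef, second of 2 windows, chr15:81811164-81811463, plus strand: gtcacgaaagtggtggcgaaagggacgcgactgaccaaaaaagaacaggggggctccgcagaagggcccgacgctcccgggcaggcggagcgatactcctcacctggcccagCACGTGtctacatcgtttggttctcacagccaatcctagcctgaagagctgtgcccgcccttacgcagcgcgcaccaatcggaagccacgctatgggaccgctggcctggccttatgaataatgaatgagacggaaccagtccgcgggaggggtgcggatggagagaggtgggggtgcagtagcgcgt
Clock, first of 3 windows, chr5:76304743-76305042, minus strand: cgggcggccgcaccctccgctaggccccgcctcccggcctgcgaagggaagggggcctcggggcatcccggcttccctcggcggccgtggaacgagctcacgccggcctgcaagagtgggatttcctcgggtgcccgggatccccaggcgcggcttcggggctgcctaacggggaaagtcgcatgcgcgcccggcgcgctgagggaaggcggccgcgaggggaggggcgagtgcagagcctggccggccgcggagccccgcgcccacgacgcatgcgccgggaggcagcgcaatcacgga
Counted in bases from the start, the E-box of Per1 began at -166 and that of Cry1 at -60, with its E'-box at -79. In Tef the E-box lay at -138 in the window shown and at -127 in the other window. The D-boxes of Per3 began at -205 and -158.

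Libraries were made from the 3′ ends of mRNA, so a count depends little on transcript length. Levels of different genes are set side by side on the scale of normalized counts. Other differences between genes in how fully their 3′ ends are counted were not checked. In the 8 samples whose reads could be recovered from the table, depth ran from 4488493 to 5797251 reads, at which a clock gene with a normalized count near 20 rests on about that many reads. The kidney identity of the samples was checked with 5 epithelial markers, all of which were detected, with sums of 30316 to 37293 normalized counts in Rragc +/+ and of 26061 to 32536 in Rragc S74N/+. Of these 5, Umod, a marker of the thick ascending limb, fell from 5806 ± 777 to 2119 ± 857 normalized counts (SD, n = 5 each, limma adjusted p = 0.0013). The other 4 were not called. Among them Slc12a1, another marker of that limb, had 3130 ± 503 in Rragc +/+ and 3318 ± 1084 in Rragc S74N/+ (SD, limma adjusted p = 0.91). Rragc, whose edited codon a 3′ library does not read, ranged from 114 to 204 normalized counts in Rragc +/+ and from 90.1 to 160.4 in Rragc S74N/+ kidneys, which overlapped. The table gives 1 value per sample. Limma p-values rest on the spread between these samples, moderated toward that of genes of like level. One library stood apart across the table, since Rragc S74N/+ replicate 1 was the highest or the lowest of the 10 samples for 44.5% of all tested genes, where the other 9 samples were so for 11.3% to 28.9%. For some of the clock genes, fold changes, spreads and ranges are also given without it. Other values include it unless a sentence says otherwise.

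Among the 10 clock genes, the order of mean levels was Tef, Clock, Nr1d1, Nr1d2, Per3, Cry2, Dbp, Per1, Cry1 and Per2, from 589.9 down to 21.0 normalized counts over the 10 mice. Clock and Nr1d1 lay close to each other, at 226.8 and 202, and at the low end Per1, Cry1 and Per2, at 25.0, 21.9 and 21.0, differed by less than their spread between mice. Of these genes, 1 was higher in Rragc S74N/+ kidneys by limma at an adjusted p under 0.05 (Clock) and 0 were lower. Over all tested genes, 6.03% passed, 3.45% higher and 2.58% lower in Rragc S74N/+. The member count of 1 in 10 is thus near this background. At an unadjusted p under 0.05, limma also passed 1 of the 10, against 25.4% of all tested genes, and on the 8 samples with recovered reads edgeR and DESeq2 called 0 of the 10 at an adjusted p under 0.05, against 6.43% and 10.6% of the genes they tested. Genotypes were fully separated for 1 of the 10 genes, again Clock, where they were for 8.16% of all tested genes, 4.15% with Rragc S74N/+ higher and 4.01% with it lower. The median log2 fold change was 0.06 over the 10 genes and -0.01 over all tested genes.

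**Figure D1:**
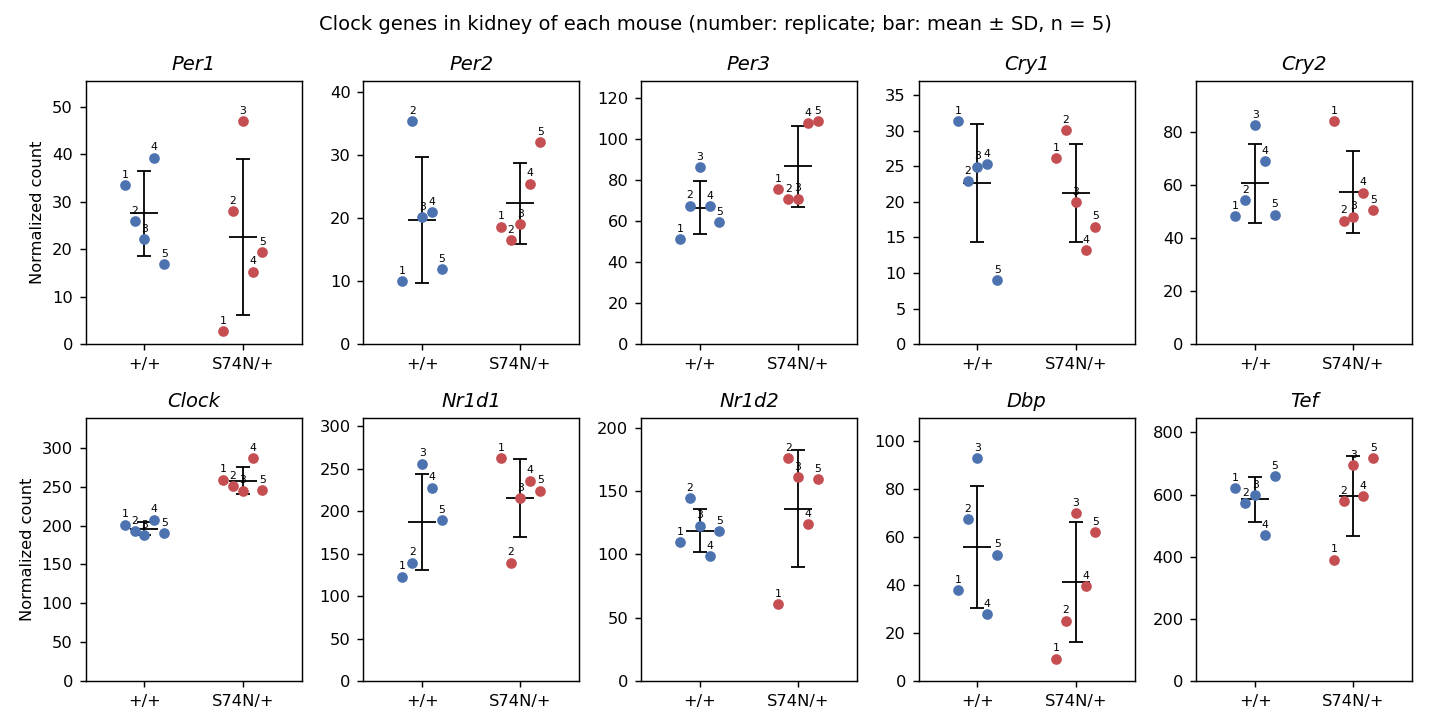
Normalized count (vertical axis, starting at 0) of each of the 10 clock genes in each kidney, with Rragc +/+ in blue and Rragc S74N/+ in red, the replicate number beside each point, and bars for the mean ± SD of 5 mice. The groups are separate for Clock, at 188 to 208 against 245 to 287, and overlap for the other 9 genes; Rragc S74N/+ replicate 1 is the lowest point for Per1, Nr1d2, Dbp and Tef.

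Clock encodes the DNA-binding partner of BMAL1. Its normalized counts were 201, 192, 188, 208 and 190.0 in Rragc +/+ replicates 1 to 5 and 259, 251, 245, 287 and 246 in Rragc S74N/+ replicates 1 to 5. Every Rragc S74N/+ kidney was above every Rragc +/+ kidney, with a gap between the groups larger than the range within Rragc +/+. Clock rose from 196 ± 8.35 to 258 ± 17.5 normalized counts (SD, n = 5 each), a 1.31-fold difference or 0.39 ± 0.11 on the log2 scale (SE, 95% interval 0.16 to 0.62, limma adjusted p = 0.044). An exact permutation test that moved genotype labels among the 10 kidneys, two-sided, gave p = 0.00794, which is the smallest it can give. The difference was 0.37 within samples whose title number is under 200 and 0.42 within those over 200.

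The adjusted p of Clock lay close to the threshold, while its size was steady. It passed in 9 of 13 other settings and was lost when the variance trend of limma was dropped (adjusted p = 0.073), with edgeR (0.069), with DESeq2 (0.058) and with limma on the same 8 samples as those count tests (0.077). With any 1 sample left out other than Rragc S74N/+ replicate 1, the limma adjusted p was over 0.05 as well, and the 10 values ran from 0.0491 to 0.102. Across all these fits the log2 fold change stayed between 0.35 and 0.47.

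In bulk kidney, fewer cells of a type and less RNA per cell cannot be told apart, and transcripts that mark several cell types differed between genotypes. All 4 markers of the distal convoluted tubule were lower in Rragc S74N/+, with summed counts of 1054 to 1663 against 4072 to 4983 in Rragc +/+. Of 7 macrophage markers 2 were called higher, with sums of 846 to 1099 against 572 to 727 over the list, while C1qc and Cd68 had log2 fold changes of -0.48 and -0.34 and were not called. Of 4 fibroblast markers 2 were called higher, the collagen genes Col1a1 (log2 fold change 1.19) and Col1a2 (0.53). Pdgfrb and Dcn had log2 fold changes of -0.13 and 0.28 and were not called. List sums were 1017 to 1776 against 653 to 1141, and include 818 normalized counts of Dcn in Rragc S74N/+ replicate 1. Of the 4 T cell markers tested 1 was called higher, with sums of 60.1 to 115 against 16.9 to 52.4, and the pan-leukocyte gene Ptprc was called higher at 119.97 to 256 against 64.6 to 92.9. The part of these cells in the level of Clock was not tested.

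The period genes encode the repressors that carry the timing of the loop. For Per1, normalized counts were 33.6, 26.0, 22.1, 39.3 and 16.9 in Rragc +/+ and 2.80, 28.1, 47.0, 15.3 and 19.4 in Rragc S74N/+ replicates 1 to 5. Replicate 1 of Rragc S74N/+, with 3 reads, was the lowest of the 10 mice and replicate 3 the highest, so the groups overlapped in both directions. The log2 fold change of Per1 was -0.63 ± 0.51 (SE, 95% interval -1.70 to 0.45, limma adjusted p = 0.46). With replicate 1 of Rragc S74N/+ left out it was -0.07.

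Per2 had 10.07, 35.4, 20.2, 21.0 and 11.9 normalized counts in Rragc +/+ and 18.7, 16.5, 18.996, 25.5 and 32.1 in Rragc S74N/+. All Rragc S74N/+ values lay inside the range of Rragc +/+, and the log2 fold change was 0.26 ± 0.33 (SE, limma adjusted p = 0.66, and 0.07 to 0.50 with 1 sample left out).

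Per3 had 51.5, 67.6, 86.4, 67.2 and 59.7 normalized counts in Rragc +/+ and 75.5, 70.8, 71.0, 108 and 109 in Rragc S74N/+. Replicates 4 and 5 of Rragc S74N/+ were above every Rragc +/+ kidney and the other 3 were inside its range. The log2 fold change of Per3 was 0.37 ± 0.19 (SE, 95% interval -0.03 to 0.77), close in size to that of Clock but with a wider error (limma adjusted p = 0.23, exact permutation p = 0.095). It was 0.11 within title numbers under 200 and 0.77 over 200.

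The cryptochromes join the period proteins in repressing CLOCK and BMAL1. Cry1 had 31.3, 22.9, 25.0, 25.3 and 8.95 normalized counts in Rragc +/+ and 26.1, 30.05, 19.996, 13.2 and 16.5 in Rragc S74N/+. The Rragc S74N/+ values all lay within the range of Rragc +/+, whose replicate 5 was the lowest of the 10, and the log2 fold change was -0.05 ± 0.34 (SE, limma adjusted p = 0.94). It turned to 0.0246 when samples were scaled to equal sums.

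Cry2 had 48.1, 54.1, 82.6, 69.0 and 48.8 normalized counts in Rragc +/+ and 83.9, 46.5, 48.0, 57.0 and 50.5 in Rragc S74N/+. Rragc S74N/+ replicate 1 was the highest of the 10 mice while the other 4 sat between 46.5 and 57.0. The log2 fold change was -0.08 ± 0.21 (SE, 95% interval -0.53 to 0.37, limma adjusted p = 0.85), and -0.23 without that replicate.

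Nr1d1 and Nr1d2 encode REV-ERB alpha and beta, the repressors of Arntl. Nr1d1 had 123, 139, 256, 228 and 190.0 normalized counts in Rragc +/+ and 263, 139.6, 216, 236 and 224 in Rragc S74N/+. Low and high mice occurred in both genotypes, and the log2 fold change was 0.23 ± 0.21 (SE, 95% interval -0.22 to 0.67, limma adjusted p = 0.52). It ran from 0.09 with Rragc +/+ replicate 1 left out to 0.38 with Rragc S74N/+ replicate 2 left out.

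Nr1d2 had 109.6, 145, 123, 98.7 and 118 normalized counts in Rragc +/+ and 60.6, 176.4, 161, 124 and 159 in Rragc S74N/+. Rragc S74N/+ replicates 2, 3 and 5 were above all Rragc +/+ kidneys and replicate 1 was below all of them. With all samples the log2 fold change was 0.12 ± 0.24 (SE, limma adjusted p = 0.80), and with replicate 1 left out it was 0.38 (limma adjusted p = 0.14).

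Dbp and Tef are outputs of the loop. Dbp, in many tissues among the transcripts with the widest daily swing, had 38.0, 67.6, 93.1, 27.9 and 52.7 normalized counts in Rragc +/+ and 9.33, 25.2, 70.0, 39.7 and 62.2 in Rragc S74N/+. Replicates 1 and 2 of Rragc S74N/+ were below every Rragc +/+ mouse, and the other 3 were inside the range. The log2 fold change of Dbp was -0.60 ± 0.45 (SE, 95% interval -1.54 to 0.35, limma adjusted p = 0.42). It was -0.16 with Rragc S74N/+ replicate 1 left out. Within title numbers under 200, which include that mouse, the log2 difference of Dbp was -1.24. Within title numbers over 200 it was 0.36, so its sign differed between the 2 ranges.

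Tef, the most abundant of the 10 genes, had 621, 572, 598, 469.8 and 659.6 normalized counts in Rragc +/+ and 391, 579.6, 695, 595 and 718 in Rragc S74N/+. In Rragc S74N/+, replicate 1 was below and replicates 3 and 5 were above all Rragc +/+ mice. The log2 fold change of Tef was 0.01 ± 0.15 (SE, 95% interval -0.32 to 0.33, limma adjusted p = 0.99).

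**Figure D2:**
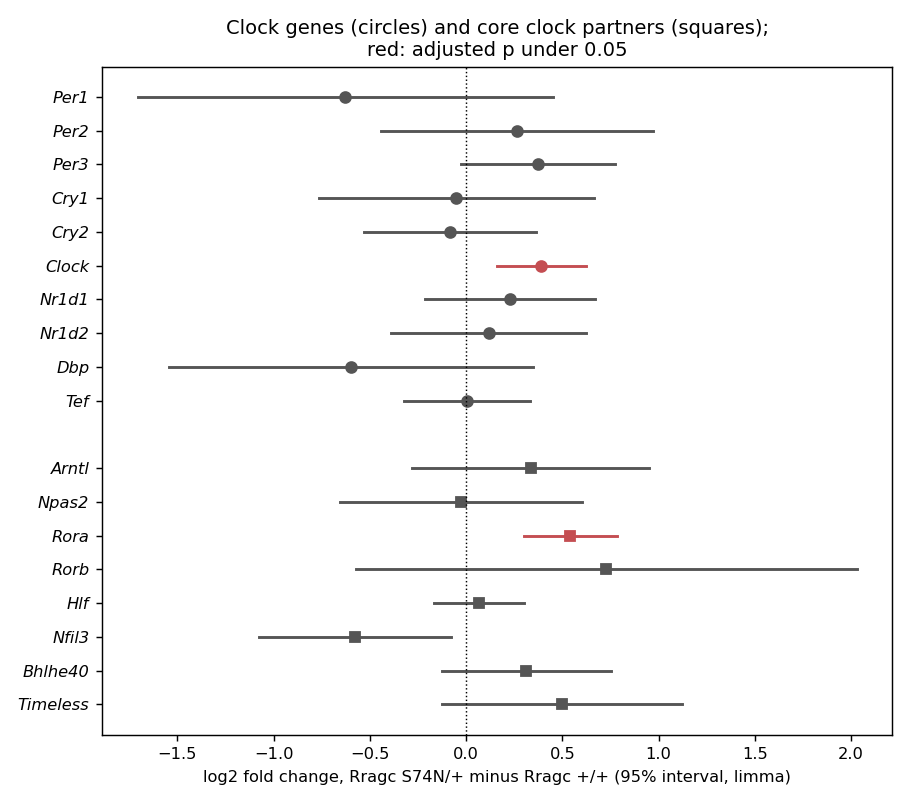
Log2 fold change of Rragc S74N/+ over Rragc +/+ (horizontal axis) with its 95% interval from limma on 5 mice per genotype, for the 10 clock genes (circles) and 8 core clock partners (squares). Clock at 0.39 and Rora at 0.54, in red, had adjusted p under 0.05, and the intervals of Per1 and Dbp are the widest among the clock genes.

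The other genes of the loop were read from a list of 13 core clock partners, of which 9 were in the table and tested. Of these 9, 1 rose in Rragc S74N/+ kidneys (Rora) and 0 fell, where 3.45% and 2.58% of all tested genes did, with a median log2 fold change of 0.31 beside -0.01 over all tested genes. Rora encodes the receptor that activates Arntl at the sites REV-ERB represses. Its normalized counts were 292, 292, 339.8, 343 and 381 in Rragc +/+ and 544, 452, 433, 481 and 488 in Rragc S74N/+. Every Rragc S74N/+ kidney was above every Rragc +/+ kidney, as for Clock. Rora rose from 329.7 ± 37.9 to 479 ± 42.2 normalized counts (SD, n = 5 each), a log2 fold change of 0.54 ± 0.11 (SE, 95% interval 0.30 to 0.78, limma adjusted p = 0.013). The exact permutation p was 0.00794, and Rora passed in all 13 other settings and with each of the 10 samples left out.

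Arntl, the partner of Clock, had 68.2, 37.5, 29.8, 34.1 and 51.7 normalized counts in Rragc +/+ and 70.9, 69.8, 54.0, 65.2 and 25.3 in Rragc S74N/+. Replicate 5 of Rragc S74N/+ was the lowest of all 10 mice although the other 4 were above the mean of Rragc +/+, and the log2 fold change was 0.34 ± 0.29 (SE, limma adjusted p = 0.49). With that mouse left out it was 0.60 (limma adjusted p = 0.16), and with other single samples left out it was as low as 0.21. Npas2, which can stand in for Clock, was at -0.03 ± 0.30 on the same scale (SE, limma adjusted p = 0.97). Nfil3, a repressor that competes with Dbp and Tef at D-boxes, had 48.1, 35.4, 25.0, 41.9 and 50.7 normalized counts in Rragc +/+ and 27.0, 27.1, 23.99, 20.4 and 32.1 in Rragc S74N/+. Replicates 3 and 4 of Rragc S74N/+ were below every Rragc +/+ mouse and the other 3 lay in the lower part of the Rragc +/+ range. Its log2 fold change was -0.58 ± 0.23 (SE, 95% interval -1.07 to -0.08) with a limma adjusted p of 0.14.

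None of the other partners described passed the test. Hlf, the third PAR bZIP gene, differed by 0.07 ± 0.11 in log2 fold change, with an interval of -0.17 to 0.30. The log2 fold change was 0.31 ± 0.21 for Bhlhe40, a repressor at E-boxes, 0.50 ± 0.29 for Timeless and 0.73 ± 0.61 for Rorb, which had a mean of 6.02 normalized counts (SE throughout).

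Because the hour of collection is unknown, the spread between mice of the same genotype was measured for each gene, as the SD of log2 values around the genotype means. This SD was compared with the 969 to 2856 tested genes whose mean level lay within 1.5 times that of the clock gene. Dbp (SD 0.93) lay at percentile 98.3 of such genes and Per1 (SD 1.03) at percentile 98.1. Nr1d2 (SD 0.46) lay at percentile 92.4, Nr1d1 (SD 0.40) at 90.1 and Tef (SD 0.28) at 76.5. Cry1, Per2, Cry2 and Per3 were near the middle, at percentiles 68.1, 61.4, 52.3 and 47.2. Clock was at the other end, with an SD of 0.08 and a percentile of 0.286. Its coefficient of variation between mice of 1 genotype, 6.04%, was no larger than the 6.64% that counting error alone would give at its level. For Dbp the coefficient of variation was 52.4% beside a counting error of 14.3%, and for Nr1d1 25.6% beside 7.04%. The SD between mice enters the error of the fold change, but limma moderates it toward that of genes of like level. With its SD of 0.08, Clock had an SE of 0.11. Rora and Hlf also had an SE of 0.11, with an SD of 0.15 each. The small spread of Clock thus did not by itself set the width of its interval.

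**Figure D3:**
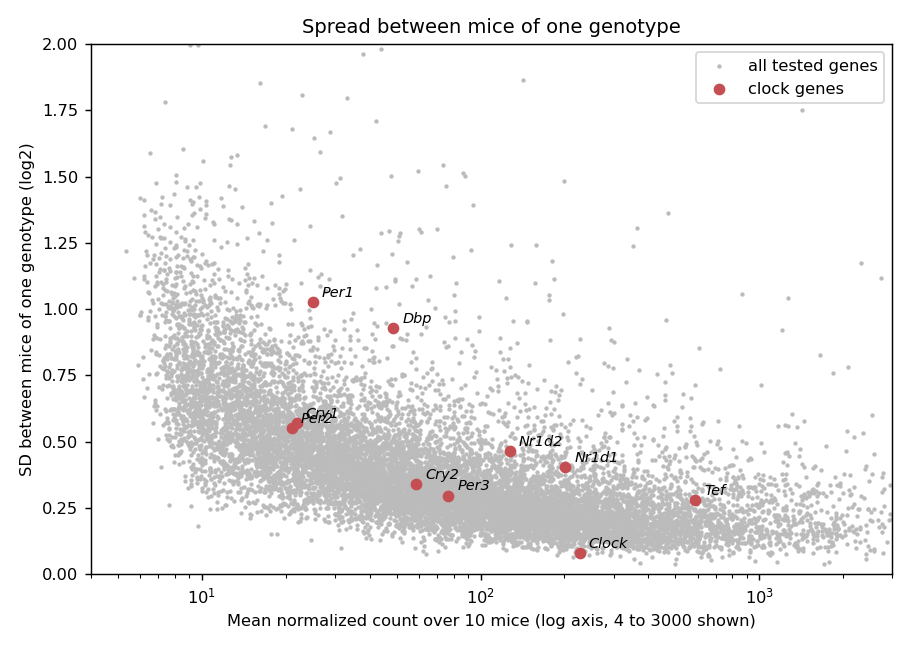
SD of log2 values between mice of 1 genotype (vertical axis) against the mean normalized count over 10 mice (horizontal log axis) for all tested genes in the ranges drawn (grey) and the 10 clock genes (red). Per1 and Dbp lie at the upper edge of the cloud, at percentiles 98.1 and 98.3 of genes of like level, and Clock at its lower edge, at percentile 0.286.

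Over all 5 mice of a genotype, the range was wider in Rragc S74N/+ for Per1, Dbp and Nr1d2. The highest over the lowest mouse was 16.8-fold for Per1 and 7.50-fold for Dbp in Rragc S74N/+, where it was 2.32-fold and 3.33-fold in Rragc +/+. For Nr1d2 it was 2.91-fold against 1.47-fold, whereas for Per2 and Cry1 it was narrower in Rragc S74N/+ (1.95-fold against 3.51-fold, and 2.27-fold against 3.50-fold). Differences in spread between genotypes were not tested.

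Much of the width in Rragc S74N/+ was set by replicate 1, which was the lowest of the 10 mice for Per1, Nr1d2, Dbp and Tef and the highest for Cry2 and Nr1d1, and among the partners for Arntl, Rora and Timeless. With that replicate left out, the SD around the genotype means, taken over both genotypes, was smaller for these 4 low genes. It was 0.57 in place of 1.03 for Per1 and 0.66 in place of 0.93 for Dbp. For Nr1d2 it was 0.21 in place of 0.46, and for Tef 0.17 in place of 0.28. The same mouse stood apart for genes outside the loop too, with 576 normalized counts of the steroid-driven factor Klf9 where the other 4 Rragc S74N/+ mice had 1196 to 1495, 818 of the fibroblast marker Dcn where they had 146 to 327, and 570 of the endothelial marker Pecam1 where they had 241 to 348. Its part in the clock genes was not tested beyond leaving it out. For Clock it lay inside its group, at 259.

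**Figure D4:**
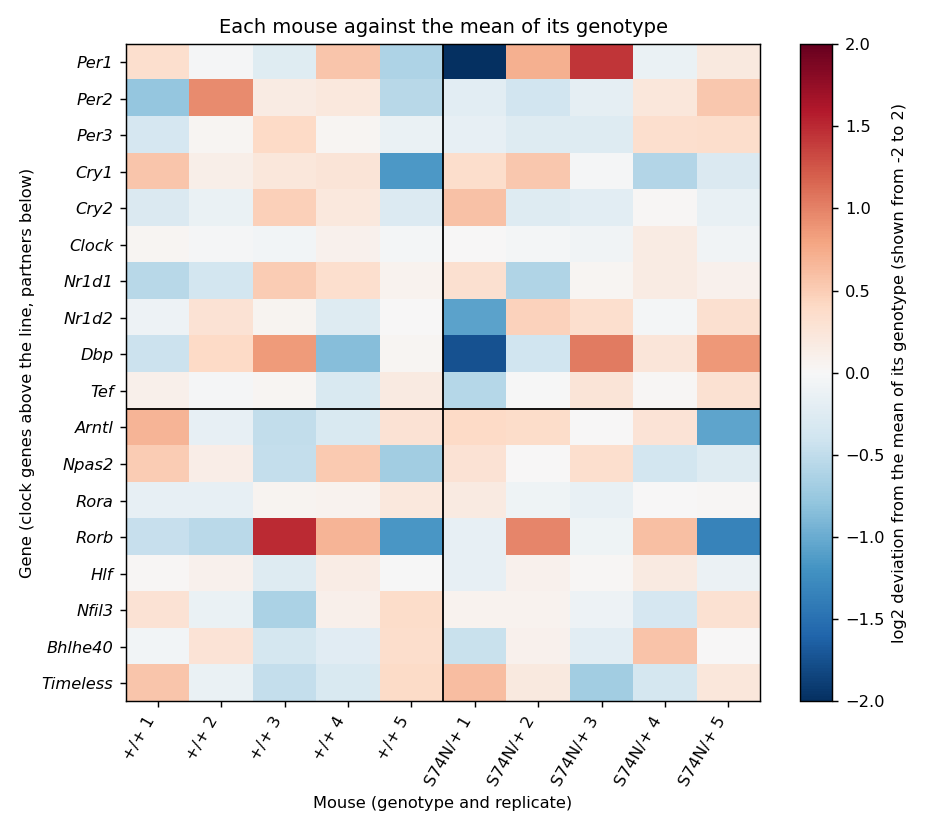
Log2 deviation of each mouse (columns) from the mean of its genotype for the 10 clock genes and 8 core clock partners (rows), red above and blue below, with colours held at -2 and 2. Rragc S74N/+ replicate 1 is blue for Per1 (-2.23, past the end of the scale), Dbp (-1.74), Nr1d2 (-1.06) and Tef (-0.58) and red for Cry2 (0.58), and the row of Clock is nearly white.

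Whether clock genes moved together from mouse to mouse was asked with Dbp as the reference. The other 9 clock genes and the 9 partners gave 18 pairs, and deviations from the genotype means were compared over the 10 mice, with p from every reordering of the mice within genotypes. Tef followed Dbp most closely (Pearson r = 0.87, exact permutation p = 0.00736, adjusted 0.13; Spearman rho = 0.71, exact permutation p = 0.044, adjusted 0.26). Nr1d2 was next (r = 0.79, exact permutation p = 0.032, adjusted 0.29; rho = 0.72, exact permutation p = 0.035, adjusted 0.26). None of the 18 pairs passed after adjustment, and 2 had an unadjusted p under 0.05 for Pearson's r. When the 2 mice farthest from the median of Dbp, Rragc S74N/+ replicate 1 and Rragc +/+ replicate 4, were left out, r was 0.47 for Tef and 0.16 for Nr1d2. Leaving out the ends of Dbp can lower r by itself, so how far these relations rest on those mice is not settled.

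Arntl, which in a running clock peaks at about the opposite time to Dbp, had an r of -0.54 with it (exact permutation p = 0.16, adjusted 0.44) and a rho of -0.62 (exact permutation p = 0.068, adjusted 0.30). Without the same 2 mice its r was -0.78 (exact permutation p = 0.045, adjusted 0.48). Clock had an r of -0.42 (exact permutation p = 0.32, adjusted 0.44) and a rho of -0.72 (exact permutation p = 0.036, adjusted 0.26). Nr1d1 had an r of 0.02 over 10 mice and 0.74 over the 8, with an exact permutation p of 0.95 and 0.054 (adjusted 0.95 and 0.48).

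**Figure D5:**
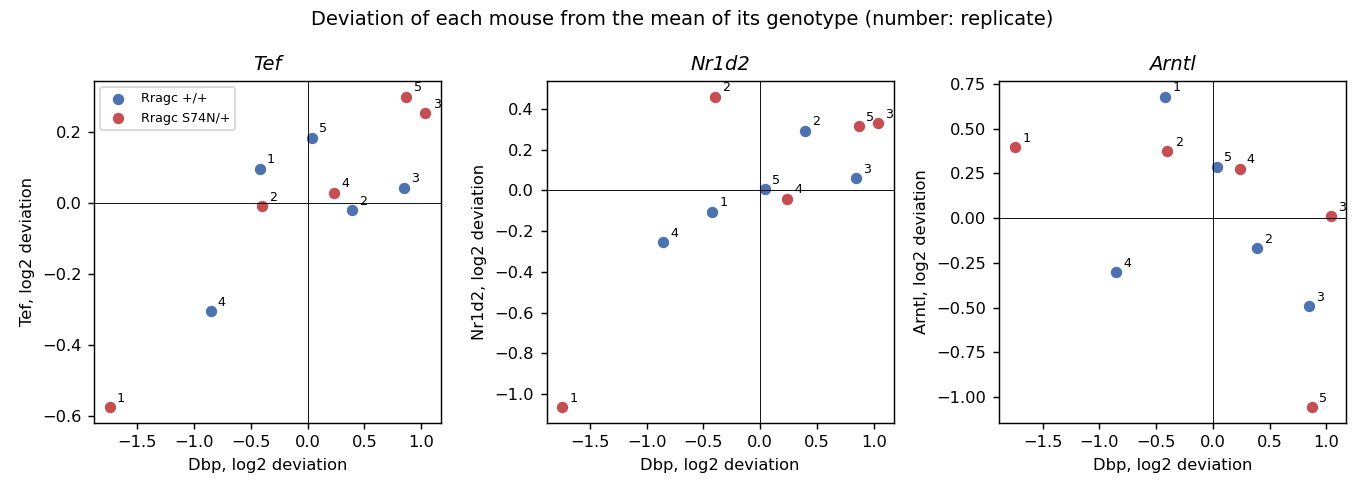
Log2 deviation from the genotype mean of Dbp (horizontal axes) against that of Tef, Nr1d2 and Arntl (vertical axes) in the 10 kidneys, Rragc +/+ in blue and Rragc S74N/+ in red with replicate numbers. Rragc S74N/+ replicate 1 lies alone at the lower left for Tef and Nr1d2, where r was 0.87 and 0.79, and Arntl slopes the other way with r = -0.54.

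The log2 difference between Dbp and Arntl in the same kidney orders mice by these opposed genes without reference to other mice. It was -0.83, 0.84, 1.61, -0.28 and 0.03 in Rragc +/+ replicates 1 to 5. In Rragc S74N/+ replicates 1 to 5 it was -2.80, -1.43, 0.37, -0.70 and 1.27. Each genotype held mice with more Dbp than Arntl and mice with less. Rragc S74N/+ replicates 1 and 2 lay below every Rragc +/+ mouse, and the other 3 lay inside the Rragc +/+ range.

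Among 7741 tested genes of at least 50 normalized counts on average (7742 for Dbp and Per1, which are themselves outside that set), those with deviations most like Dbp, Nr1d1, Per1 and Clock over the 10 mice were from outside the loop. For Dbp they were Socs7 (r = 0.96), Asah2 (0.95) and Fuca2 (0.95), with Kdm4b lowest (-0.96). For Nr1d1 they were Llph (r = 0.98), Abcc9 (0.96) and Seh1l (0.94), with Pygo2 lowest (-0.96). For Per1 the nearest were Cpt2 (r = 0.95), Hdgfl2 (0.95) and Hexim1 (0.94), with Zfp462 lowest (-0.96), and for Clock Prom1 (r = 0.94), Brap (0.93) and Gatb (0.92), with Ankfy1 lowest (-0.92). These are the extremes of 7741 or 7742 values over 10 mice and are given as a description. They include Rragc S74N/+ replicate 1, whose deviation was -1.74 for Dbp and -2.23 for Per1, and were not computed without it.

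Genes that act on clock proteins, the targets of the clock and genes driven by signals that reset it were read from further lists. Of 17 clock protein modifiers tested (casein kinases, ubiquitin ligases, deacetylases and coactivators), 0 were called in either direction, with 1 at an unadjusted limma p under 0.05. Over all tested genes, 6.03% were called and 25.4% had such an unadjusted p. The smallest p values were those of Btrc, a ubiquitin ligase subunit for period proteins, with a log2 fold change of -0.61 (limma adjusted p = 0.10), and of Hdac3, the deacetylase that REV-ERB recruits, with -0.58 (limma adjusted p = 0.20). Of 12 clock-controlled outputs, 0 were called and 1 had an unadjusted limma p under 0.05. This was Scnn1a, a subunit of the epithelial sodium channel, with 383 ± 67.2 normalized counts in Rragc +/+ and 259.8 ± 63.9 in Rragc S74N/+ (SD, n = 5 each; limma adjusted p = 0.061), and after it Slc9a3, a sodium-proton exchanger, with a log2 fold change of -0.29 (limma adjusted p = 0.31).

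Of 10 glucocorticoid-responsive genes, 0 rose and 2 fell, with 6 at an unadjusted limma p under 0.05, where 2.58% of all tested genes fell and 25.4% had such a p. Those that fell were the metallothioneins Mt1 and Mt2, which bind zinc and respond to metals as well as to glucocorticoids. Mt1 fell from 769 ± 62.6 to 316 ± 90.2 normalized counts, a log2 fold change of -1.32 (SD, n = 5 each; limma adjusted p = 0.000146). Mt2 fell from 219 ± 19.9 to 118 ± 26.3 (log2 fold change -0.92, limma adjusted p = 0.0058). The median log2 fold change of this list was -0.34, beside -0.01 over all tested genes. Those 2 genes did not overlap between groups, but the other 8 genes of the list did, among them Klf9 (log2 fold change -0.50, limma adjusted p = 0.14). The genes of the list were not all on 1 side, with log2 fold changes of 1.28 for Zbtb16 (limma adjusted p = 0.068) and 0.31 for Fkbp5 (limma adjusted p = 0.35).

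Of 6 fasting-responsive genes, 7 immediate early genes and 7 temperature-linked genes, 0 were called in either direction by limma, with 0, 2 and 1 at an unadjusted p under 0.05. The shares over all tested genes were 6.03% called and 25.4% at such an unadjusted p. The fasting-responsive genes with the smallest p were Txnip (log2 fold change -0.39, limma adjusted p = 0.43) and Acot1 (-0.33, limma adjusted p = 0.54). Among immediate early genes these were Dusp1 (log2 fold change -0.88, limma adjusted p = 0.055) and Egr1 (0.86, limma adjusted p = 0.12). Among temperature-linked genes they were the chaperones Hspb1 (log2 fold change 0.65, limma adjusted p = 0.089) and Hspa1b (-0.60, limma adjusted p = 0.43).

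The balance of calls over all genes depended on the scaling. As deposited, 457 genes were called higher and 341 lower, and after scaling to equal sums 718 were higher and 225 lower. Scaling to equal sums without mitochondrially encoded genes gave 608 higher and 274 lower. Clock and Rora were called higher under each of these scalings.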

How the data were processed

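Whole kidneys of 5 Rragc S74N/+ and 5 Rragc +/+ mice were profiled by oligo-dT primed 3′ mRNA sequencing. Per the submitters' processing notes and the methods of the study, the authors checked reads with FastQC 0.11.7, aligned them to GRCm39 with TopHat2 2.0.10, Bowtie 1.0.0 and SAMtools 0.1.19, and obtained sense-strand counts for each gene with HTSeq 0.6.1. The deposited signal values are normalized counts, that is, counts that the authors divided by a size factor for each sample, with genes of few reads left out (lowest mean 4.37). All columns were matched to samples by title, leaving 0 unmatched.

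Genes with a normalized count of at least 5 in at least 5 samples were kept (13236 of 13299, 63 removed). Values were put on a log2 scale after adding a pseudocount of 1, and limma 3.58.1 was fitted (R 4.3.3, eBayes with trend, genotype as the only term), with Benjamini-Hochberg adjustment over all tested genes, two-sided, at 0.05. Fold changes are on this scale and understate the change of low genes. The study used a count model with the same contrast and threshold. Whole reads were recovered in 8 samples, 4 per genotype (100% of values whole within 0.01 reads). In the other 2 samples, Rragc +/+ replicate 5 and Rragc S74N/+ replicate 3, the step lay too close to 1 for the test applied. edgeR 4.0.16 (quasi-likelihood) and DESeq2 1.42.0 were run on those 8 as alternatives. Limma on the same 8 was added after seeing the data. Other alternatives were pseudocounts of 0.5 and 5, other filters and scalings, no trend, a robust fit, a term for whether a sample's title number was under or over 200 (whose meaning the labels do not give), and each sample left out. The fits were tested on simulated data.

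The text names all 10 clock genes, the tested core clock partners (1 is not reported here) and, from the other lists, genes past the threshold or, where there were none, the 2 with the smallest p. Likeness used genes with a mean of at least 50. Klf9, Dcn, Pecam1, Zbtb16, Fkbp5 and the marker genes were named after their values were seen and are given as values beside results. The rule for the members uses gene symbols and no measured value, but the members and gene lists were chosen with earlier results of these data known. RefSeq promoter windows are on GRCm38.p6, another build than that of the counts, and were matched by gene symbol.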

Additional observations from a re-analysis of the deposited data

Results flagged for a closer look

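Cry2 in Rragc S74N/+ replicate 1 stood apart from the rest of its group, at 83.9 normalized counts where the other 4 mice had 46.5 to 57.0 (gap over the whole range 0.719). It was the only such value in 38 groups of 5 samples searched, the clock genes and core clock partners in each genotype. Chance marks about 1 in 20 groups, or 1.9 of the 38.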

How the results depend on the processing

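The count of clock genes past the threshold went from 1 to 0 without the variance trend, with edgeR, with DESeq2 and with limma on the same 8 samples, and ran from 0 to 1 with 1 sample left out. Over all genes, 798 calls became 391 without the trend and 1402 with DESeq2, and 311 to 902 with 1 sample left out. Scaling to equal sums moved the median log2 fold change from -0.01 to 0.06. Signs turned for Cry1 (0.0246 with equal sums, -0.34 to 0.10 with 1 sample left out), Cry2 (-0.228 to 0.0360 with 1 left out), Tef (-0.0113 with limma on 8 samples, -0.0701 to 0.15 with 1 left out) and Npas2 (0.0484 with equal sums, 0.0122 with equal sums without mitochondrial genes, -0.20 to 0.10 with 1 left out), none of which was called. Within title numbers, as values with no test, signs also turned for Per2 (-0.10), Nr1d2 (-0.06), Tef (-0.14) and Npas2 (0.12) under 200 and for Dbp (0.36) and Arntl (-0.04) over 200. Without the 2 mice farthest in Dbp, r with Dbp turned to 0.55 for Cry2, 0.13 for Rora and -0.44 for Bhlhe40. The cause was not tested, and the fits on fewer samples have less precision by construction. No paired analysis was possible because the labels carry no replicate numbers. Among the 10 clock genes, depth limits Per1, Per2 and Cry1 most, whose counting errors were 20.0%, 21.8% and 21.4% of their levels. Among the partners, that of Rorb was 40.7%.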

Other observations

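Of the glucocorticoid-responsive genes that did not pass the test, 2 had large differences with wide spread. Zbtb16, a transcriptional repressor raised by steroid hormones, had 13.7 ± 4.56 normalized counts in Rragc +/+ and 39.8 ± 25.2 in Rragc S74N/+ kidneys (SD, n = 5 each; limma adjusted p = 0.068). Tsc22d3, which encodes the glucocorticoid-induced leucine zipper protein, had 97.0 ± 23.1 and 53.8 ± 26.7 (SD, n = 5 each; limma adjusted p = 0.058). These were picked for their size after their values were seen.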
